A study of Mus musculus with 21 samples.

Results

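Igf1, Vegfa, Vegfb, Pdgfa, Pdgfb, Pdgfc, Tgfb1, Hgf and Hbegf are 9 genes of secreted growth factors that act on vessels, stromal cells and epithelia. They were taken from a fixed list of symbols, 9 of the 54532 genes in the count table. The list was chosen with earlier results of these data known. Counts of these genes beside shares of all genes are therefore descriptions. All 9 passed the filter on low counts, which left 22935 genes for testing. RNA was sequenced from myeloid cells that had been sorted by flow cytometry from collagenase-digested adipose tissue of male C57BL/6 mice. The obese mice had eaten a high fat diet (HFD) for 16 weeks and the lean mice a normal diet (ND) for 16 weeks. There were 21 libraries in 7 groups of 3. MHCIIlow macrophages, MHCII+CD11c- macrophages and monocyte derived cells were sorted from both diets, and MHCII+CD11c+ macrophages from obese mice only. These populations are called MHCII-low, CD11c-negative, monocyte-derived and CD11c-positive cells here. The ages of the mice, the fat depot and any pooling of animals are not given in the sources used here. Whether the 3 replicates in a group are separate animals is not stated in the labels, so p-values measure only the spread between these samples, which may be technical.

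VEGF-A is the main inducer of endothelial growth and its gene is a known target of hypoxia-inducible factors, while VEGF-B signals through VEGF receptor 1. Chains of the platelet-derived growth factor (PDGF) family recruit pericytes and stimulate fibroblasts and preadipocytes through PDGF receptors. IGF-1 promotes growth and survival through the IGF-1 receptor, HGF acts through the receptor MET, HB-EGF is shed from the cell surface and activates EGF receptors, and TGF-beta1 is secreted in a latent form and drives matrix production. Macrophages of adipose tissue are a known source of such factors during expansion of the tissue and its vessels.

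On GRCm38 the annotation (GENCODE M21) places Igf1 at chr10:87858265-87937042, Vegfa at chr17:46016993-46032369 and Vegfb at chr19:6982473-6987651. The PDGF genes lie at chr5:138976014-138997370 (Pdgfa), chr15:79995874-80014977 (Pdgfb) and chr3:81036416-81214040 (Pdgfc). Tgfb1 lies at chr7:25687002-25705077 and Hgf at chr5:16553495-16620152. All 9 are protein-coding genes, and reads were counted over their exons. Exons of Pdgfa share 813 bases with 6330403L08Rik on the other strand, and exons of Pdgfc share 147 bases with Gm16000. Exons of Hgf overlap Gm43489 on the same strand. No source used here gives the strand setting of the counting, and reads in these stretches cannot be told apart. The partner genes stood at 2.40 to 31.3 CPM (6330403L08Rik), 0.0422 to 7.28 CPM (Gm16000) and 0.129 to 0.923 CPM (Gm43489). Here CPM are counts scaled to library totals after TMM adjustment.

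Upstream sequences of RefSeq (GRCm38.p6, the 250 bases before the start of transcription) were available for 7 of the 9 genes, in 10 windows. Those of Vegfa and Hgf are shown because both genes rose with HFD in both macrophage populations sorted from both diets, and that of Pdgfc because it fell in one of them. Capitals mark the GC box GGGCGG, on either strand. Vegfa lies on the minus strand (chr17:46032378-46032627), and Hgf (chr5:16553245-16553494) and Pdgfc (chr3:81036166-81036415) lie on the plus strand.
Vegfa: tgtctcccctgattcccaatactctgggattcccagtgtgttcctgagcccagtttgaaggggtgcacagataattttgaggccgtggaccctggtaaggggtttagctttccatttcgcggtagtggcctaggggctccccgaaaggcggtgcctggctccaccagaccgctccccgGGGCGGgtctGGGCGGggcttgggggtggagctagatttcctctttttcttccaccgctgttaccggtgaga
Hgf: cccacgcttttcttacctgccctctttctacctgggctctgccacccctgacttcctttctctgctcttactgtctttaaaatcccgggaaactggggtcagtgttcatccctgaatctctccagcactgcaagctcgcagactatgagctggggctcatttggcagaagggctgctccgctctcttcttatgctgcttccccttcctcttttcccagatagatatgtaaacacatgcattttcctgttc
Pdgfc: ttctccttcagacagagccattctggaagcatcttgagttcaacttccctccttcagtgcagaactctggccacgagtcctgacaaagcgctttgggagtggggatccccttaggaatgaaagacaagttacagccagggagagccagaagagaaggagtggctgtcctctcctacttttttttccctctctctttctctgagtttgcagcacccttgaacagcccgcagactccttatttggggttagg
The Vegfa window shown holds 2 GC boxes, which were found in 32.7% of 32817 such windows, and the windows of Hgf and Pdgfc hold none. The letters of the core of a hypoxia response element (ACGTG, in 16.6% of windows), of an AP-1 site (TGACTCA or TGAGTCA, 4.46%), of an E-box (CACGTG, 6.02%, which contains ACGTG) and of a TATA box (TATAAA, 12.4%) were in none of these 3 windows on either strand. A second Vegfa window, which overlaps exons and is not shown, holds 1 ACGTG and 1 GC box, and a second Hgf window holds none of these motifs. GC content was 59.2% in the Vegfa window shown and 50.8% in both others. A match describes letters in these windows and nothing further.

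Library totals ran from 11245851 counts (lean monocyte-derived replicate 3) to 35568948 counts (obese MHCII-low replicate 1). Depth went with diet, as every obese library was deeper than every lean one of its population. Lean totals reached 21530356 in MHCII-low, 25914583 in CD11c-negative and 20058521 in monocyte-derived cells. Obese totals began at 30083259, 26648301 and 20871699 in the same order. At these totals counting error is small for most of the genes, but Pdgfc had only 5 to 79 counts per library in monocyte-derived cells. The genes behind the sort followed the labels. The MHC class II gene H2-Ab1 had a mean of 233 CPM in lean and 346 CPM in obese MHCII-low cells against 1705 CPM or more in the other groups. Itgax, which encodes CD11c, had a mean of 85.0 CPM in obese CD11c-negative and 586 CPM in CD11c-positive cells. The summed level of 5 macrophage markers (Adgre1, Csf1r, Cd68, Mertk, Fcgr1) ran from 3023 to 3946 CPM in the macrophage libraries. In monocyte-derived cells it was 514, 1205 and 469 CPM in lean and 1124, 1511 and 1535 CPM in obese replicates 1 to 3, and 6 dendritic cell markers summed to 313 to 1104 CPM there against 15.2 to 113 CPM in macrophages. The 10 fibroblast and preadipocyte markers summed to 2006 to 2861 CPM in the 4 obese libraries of replicate 2 and to 845 to 1539 CPM in the other obese libraries. Lean monocyte-derived replicates 1 and 3 had 73.7% and 67.1% of their counts on protein-coding genes, against 76.9% to 84.0% in the other libraries.

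**Figure D1:**
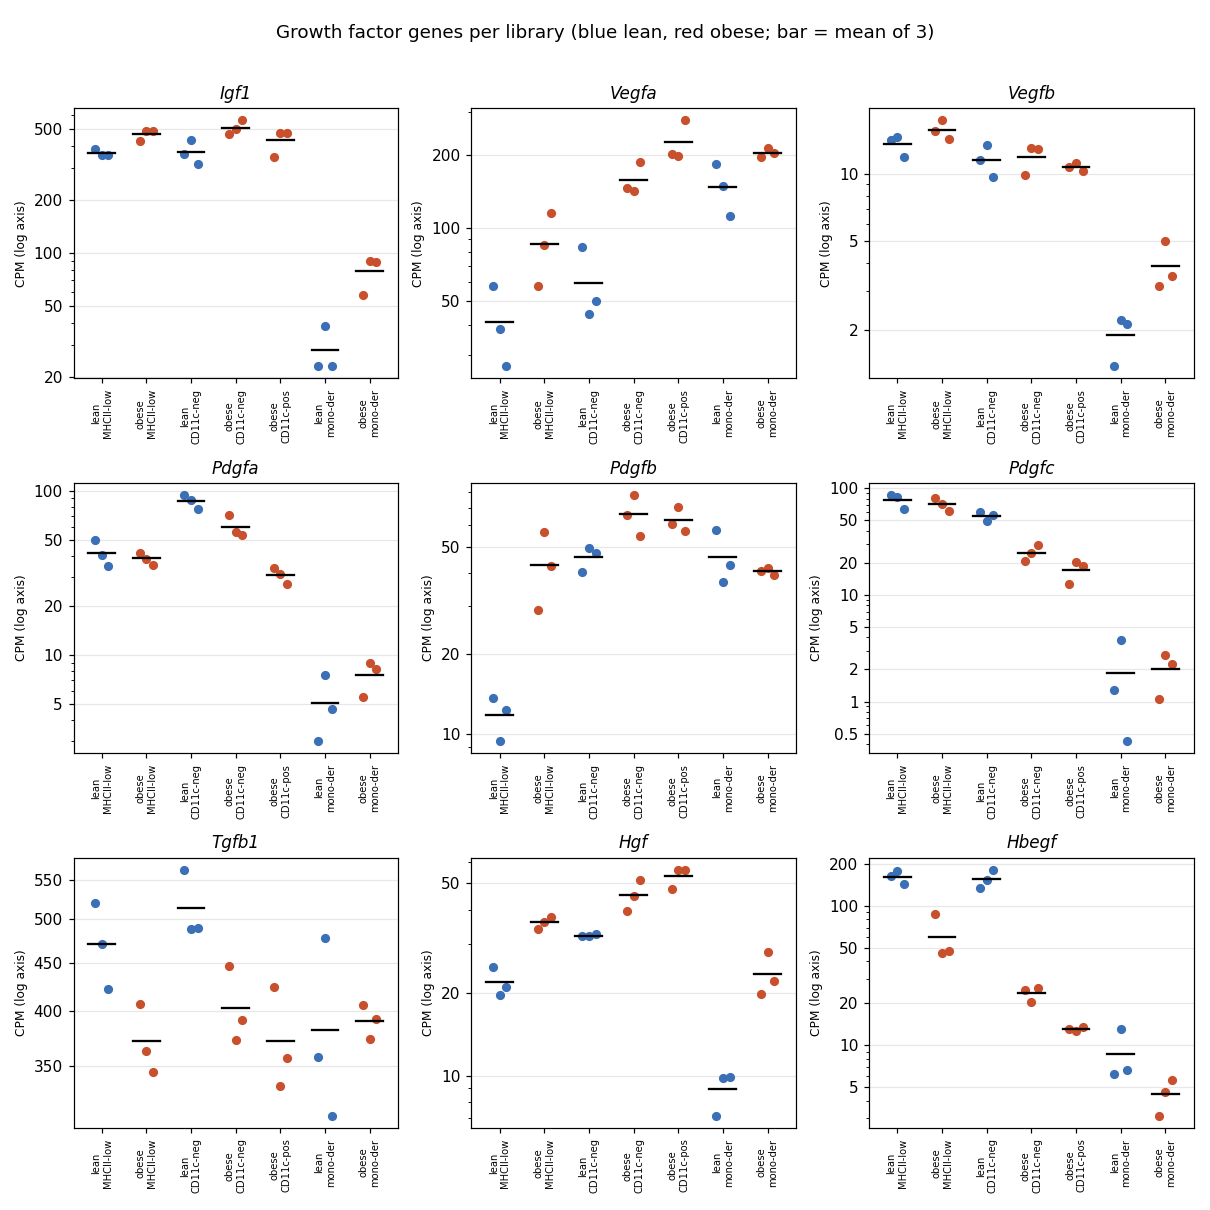
Level of each growth factor gene in every library, in CPM on a log axis, with 1 panel a gene, blue points for lean and red points for obese libraries, and a bar at the mean of 3. Hbegf is high in the lean MHCII-low and CD11c-negative libraries (135 to 182 CPM) and lower in every other group, and Igf1, Vegfb, Pdgfa and Pdgfc are lowest in monocyte-derived cells.

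Levels of different genes were compared per kilobase of exon (CPM per kb). Tgfb1 was the most abundant of the 9 in every group, with means from 73.7 CPM per kb in obese MHCII-low to 102 CPM per kb in lean CD11c-negative cells. Igf1 came second in both MHCII-low groups and in lean and obese CD11c-negative cells, at 47.4 ± 3.53 CPM per kb in obese MHCII-low cells (SD, n = 3). Vegfa came second in CD11c-positive (52.6 ± 10.4 CPM per kb) and in both kinds of monocyte-derived cells (34.6 ± 8.25 lean, 47.5 ± 1.91 obese). Pdgfc was the lowest in monocyte-derived cells, at 0.361 ± 0.346 CPM per kb in lean and 0.397 ± 0.168 CPM per kb in obese mice.

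**Figure D2:**
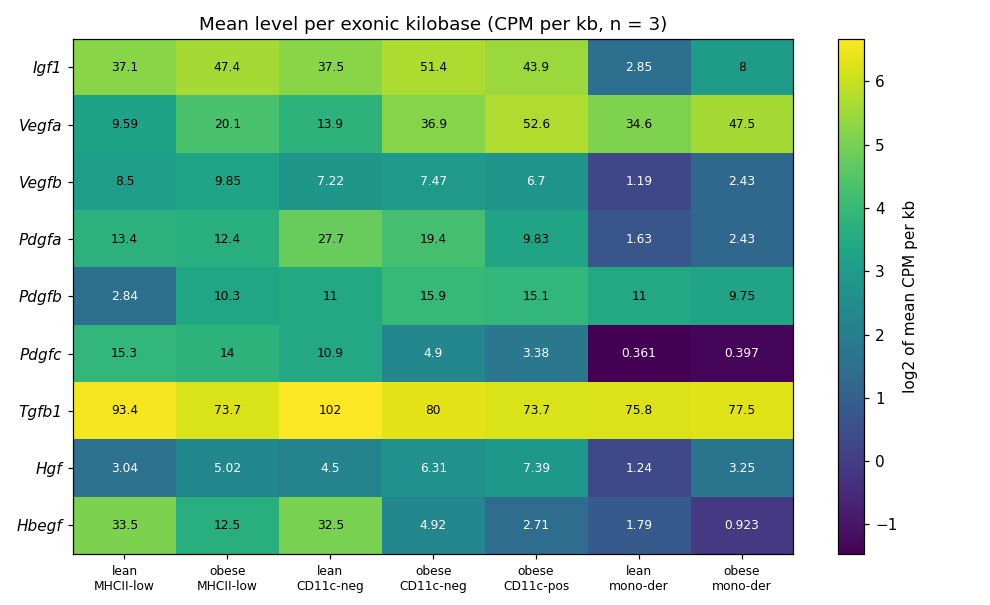
Mean level of the 9 genes in the 7 groups as CPM per kb of exon, with the value printed in each cell. Tgfb1 has the highest value in each group, and Vegfa exceeds Igf1 in CD11c-positive and monocyte-derived cells.

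The first question is how the 9 genes differed between obese and lean mice within a population. Differences are log2 fold changes of obese over lean from edgeR's quasi-likelihood test, with adjusted p by Benjamini-Hochberg over all 22935 genes, and a gene is called where the adjusted p is under 0.05. In MHCII-low macrophages 3 of the 9 rose (Vegfa, Pdgfb, Hgf) and 1 fell (Hbegf), where 30.7% of all tested genes were called, 16.8% higher and 13.8% lower. In CD11c-negative macrophages 3 rose (Vegfa, Pdgfb, Hgf) and 2 fell (Pdgfc, Hbegf), where 32.4% of all genes were called, 16.8% higher and 15.6% lower. In monocyte-derived cells 3 rose (Igf1, Vegfb, Hgf) and 1 fell (Hbegf), where 17.2% of all genes were called, 7.44% higher and 9.76% lower. These 4 passed as well without lean replicate 1 or without lean replicate 3, the libraries with the smallest share of counts on protein-coding genes. Other runs kept fewer of them. A fit of these 2 groups alone called 1 of the 9 and 122 of all genes. Limma's voom with a weight for each group called 2 of the 9 and 1177 of all genes. The call for Hbegf was lost in 4 of 6 fits with 1 library left out. In such fits, here and below, the filter kept more genes for testing (23489 to 26134). They also have fewer libraries, so a lost call alone does not show that a result rests on the library left out. The median log2 fold change of the 9 was 0.21, 0.05 and 0.46 in these populations, and that of all genes was -0.07, -0.10 and -0.05. In sorted bulk samples, a change in the share of cells that make a factor and a change in its RNA per cell cannot be told apart.

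**Figure D3:**
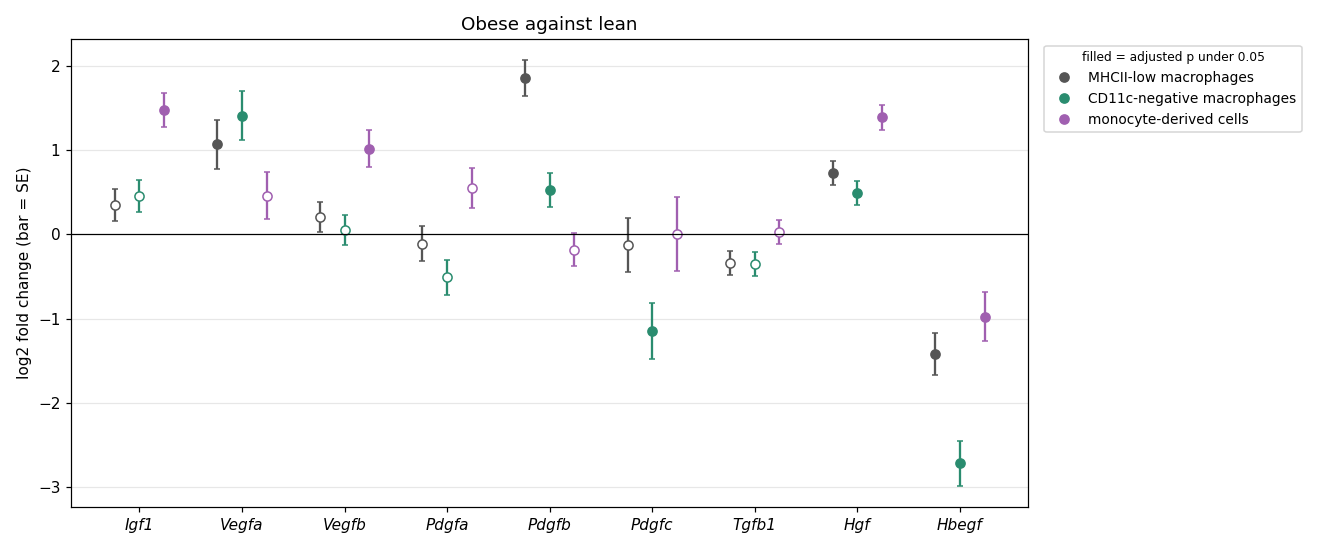
Log2 fold change of obese over lean for each gene in MHCII-low, CD11c-negative and monocyte-derived cells, with bars of 1 SE and filled points where the adjusted p is under 0.05. Hgf lies above 0 and Hbegf below 0 with filled points in all 3 populations.

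Vegfa stood at 57.6, 38.5 and 27.1 CPM in lean and 57.7, 85.0 and 116 CPM in obese MHCII-low macrophages. The lowest obese library only just exceeded the highest lean one. The log2 fold change was 1.07 (SE 0.29, adjusted p = 0.0104), and it did not pass without lean replicate 3 (0.85, adjusted p = 0.0601) or without obese replicate 3 (0.79, adjusted p = 0.0786). With the obese replicate 2 libraries of all 4 populations left out together it was 1.09 (adjusted p = 0.0614). In CD11c-negative macrophages Vegfa was 84.0, 44.5 and 50.1 CPM in lean and 146, 142 and 187 CPM in obese libraries. All obese libraries exceeded all lean ones, by a log2 fold change of 1.41 (SE 0.29, adjusted p = 0.00136). In monocyte-derived cells it was already high in lean libraries, at 183, 149 and 112 CPM, and stood at 196, 212 and 203 CPM in obese ones (log2 fold change 0.46, SE 0.28, adjusted p = 0.263). Among the 7 groups CD11c-positive macrophages had the highest mean, 225 ± 44.6 CPM, with libraries at 202, 198 and 277 CPM that overlapped those of obese monocyte-derived cells.

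Vegfb was low throughout. Its libraries ran from 9.70 to 17.4 CPM in the 5 macrophage groups, each of which overlapped the next in the order of their means. Groups further apart in that order did not all overlap. Obese MHCII-low libraries (14.4 to 17.4 CPM) were above those of obese CD11c-negative (9.91 to 13.0 CPM) and CD11c-positive cells (10.3 to 11.3 CPM). Obese CD11c-negative against MHCII-low cells had a log2 fold change of -0.40 (adjusted p = 0.337), which did not pass. In monocyte-derived cells it was 1.39, 2.22 and 2.14 CPM in lean and 3.16, 5.03 and 3.50 CPM in obese libraries. Every obese library exceeded every lean one, by a log2 fold change of 1.02 (SE 0.22, adjusted p = 0.00493). That call was lost in a fit of these 2 groups alone (0.99, adjusted p = 0.182) and in limma's voom with a weight for each group (1.00, adjusted p = 0.239). The log2 fold change was 0.21 in MHCII-low (adjusted p = 0.383) and 0.05 in CD11c-negative macrophages (adjusted p = 0.866), with overlapping libraries in both.

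Pdgfb, the chain that recruits pericytes to new vessels, had its largest diet difference in MHCII-low macrophages, where it was 13.7, 9.46 and 12.3 CPM in lean and 29.1, 57.0 and 42.5 CPM in obese libraries. The lean MHCII-low libraries were below every other library of the study. The log2 fold change was 1.86 (SE 0.21, adjusted p = 3.61e-06). In CD11c-negative macrophages Pdgfb was 40.4, 49.6 and 47.5 CPM in lean and 65.7, 77.8 and 54.7 CPM in obese libraries. The groups did not overlap, but the rise of 0.53 (SE 0.20, adjusted p = 0.0473) was near the threshold. It was lost when any of 5 libraries was left out: lean replicate 1 (0.46, adjusted p = 0.146), lean replicate 2 (0.58, 0.0609), lean replicate 3 (0.58, 0.084), obese replicate 1 (0.54, 0.0813) or obese replicate 2 (0.41, 0.176). Without lean replicate 2, lean replicate 3 or obese replicate 1 the rise itself was no smaller than in the main fit. Of all genes 4493 to 6076 were called with a library left out, against 7422 in the main fit. DESeq2's size factors gave 0.49 (adjusted p = 0.0613) and library totals without TMM gave 0.51 (adjusted p = 0.0624). In monocyte-derived cells the libraries overlapped at 57.7, 37.0 and 42.7 CPM in lean and 40.7, 41.6 and 39.4 CPM in obese mice (log2 fold change -0.18, adjusted p = 0.568).

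Pdgfc, whose product is secreted as a latent dimer and is activated by proteolysis, was highest in MHCII-low macrophages, at 86.4, 82.7 and 64.3 CPM in lean and 80.8, 70.9 and 61.4 CPM in obese libraries. These overlapped, and the log2 fold change was -0.13 (SE 0.32, adjusted p = 0.784). In CD11c-negative macrophages it was 60.6, 49.5 and 56.6 CPM in lean and 20.7, 24.9 and 29.3 CPM in obese libraries. Each obese library was below each lean one, by 1.15 on the log2 scale (log2 fold change -1.15, SE 0.33, adjusted p = 0.0136). The direction was the same in every alternative run, but the call was lost without lean replicate 1 (-1.08, adjusted p = 0.0582), lean replicate 3 (-1.12, 0.0562), obese replicate 1 (-1.03, 0.0842) or obese replicate 2 (-1.13, 0.0738). With all obese replicate 2 libraries left out together it was -1.13 (adjusted p = 0.0934). Gm16000, which overlaps Pdgfc, was lower in obese CD11c-negative cells as well, at 1.58 ± 0.196 against 5.46 ± 1.65 CPM. In monocyte-derived cells Pdgfc was 1.27, 3.82 and 0.429 CPM in lean and 1.07, 2.72 and 2.28 CPM in obese libraries, with a log2 fold change of 0.00 (SE 0.44).

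Pdgfa encodes a chain that acts mainly on PDGF receptor alpha. It was 93.9, 88.2 and 77.3 CPM in lean and 71.6, 56.4 and 53.6 CPM in obese CD11c-negative macrophages. All 3 obese libraries were below all 3 lean ones, with a log2 fold change of -0.51 (SE 0.21, adjusted p = 0.0686) that did not pass. It passed with DESeq2's size factors (-0.55, adjusted p = 0.048), in voom with group weights and in a fit of these 2 groups alone. It passed in no fit with 1 library left out. 6330403L08Rik, which overlaps Pdgfa, was lower in obese CD11c-negative cells as well, at 14.1 ± 3.06 against 28.2 ± 2.73 CPM. In MHCII-low macrophages lean libraries (50.3, 40.6 and 34.9 CPM) and obese libraries (41.9, 38.7 and 35.5 CPM) overlapped, with a log2 fold change of -0.11 (SE 0.21, adjusted p = 0.71). In monocyte-derived cells it was 3.00, 7.53 and 4.72 CPM in lean and 5.53, 8.96 and 8.22 CPM in obese libraries (log2 fold change 0.55, adjusted p = 0.118). That difference passed without lean replicate 2 (1.04, adjusted p = 0.00271) or without obese replicate 1 (0.88, adjusted p = 0.0344).

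Igf1 had the largest rise of the 9 in monocyte-derived cells. It was 22.9, 38.8 and 23.0 CPM in lean and 58.1, 90.5 and 89.1 CPM in obese libraries. The obese libraries all exceeded the lean ones, by a log2 fold change of 1.48 (SE 0.20, adjusted p = 5.32e-05), and a fit of these 2 groups alone gave 1.45 (adjusted p = 0.0511). The summed macrophage markers were also higher in obese than in lean monocyte-derived cells (1124 to 1535 against 469 to 1205 CPM), and lean replicate 2 was the highest lean library in both. Of the 10 fibroblast and preadipocyte markers 4 rose and none fell there (median log2 fold change 1.15, against 1.00 for the 5 macrophage markers), and their sum was 474 to 627 CPM in lean and 845 to 2006 CPM in obese libraries. Stromal cells are a known source of Igf1 and Hgf. The part of either signal in this rise was not tested. In macrophages Igf1 was high with either diet: 388, 357 and 358 CPM in lean and 429.5, 489.6 and 491 CPM in obese MHCII-low cells, and 361, 434 and 319.6 CPM in lean and 468, 500.0 and 561 CPM in obese CD11c-negative cells. The obese libraries exceeded the lean ones in both populations, by log2 fold changes of 0.35 (SE 0.19, adjusted p = 0.155) and 0.46 (SE 0.19, adjusted p = 0.0675) that did not pass. The difference in CD11c-negative cells passed in a fit of these 2 groups alone (0.43, adjusted p = 0.0193).

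Hgf, whose product stimulates endothelial and epithelial cells, rose in all 3 populations. In MHCII-low macrophages it was 24.8, 19.7 and 20.97 CPM in lean and 34.2, 36.1 and 37.9 CPM in obese libraries, a log2 fold change of 0.73 (SE 0.14, adjusted p = 0.000935). In CD11c-negative macrophages the lean libraries lay close together at 32.1, 32.2 and 32.6 CPM and the obese ones at 39.7, 45.0 and 51.2 CPM. The log2 fold change there was 0.49 (SE 0.14, adjusted p = 0.012), and 0.39 (adjusted p = 0.0995) without obese replicate 3. In monocyte-derived cells Hgf was 7.16, 9.80 and 9.86 CPM in lean and 19.9, 28.1 and 22.0 CPM in obese libraries. Lean and obese libraries were apart in each population, and the rise was largest in monocyte-derived cells, at 1.39 (SE 0.15, adjusted p = 5.72e-06). The summed macrophage and fibroblast markers were also higher in obese than in lean monocyte-derived cells. In lean replicates 1 to 3 the macrophage sum was 514, 1205 and 469 CPM. The part of either signal in the rise of Hgf was not tested.

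Tgfb1 varied least among the groups, with means between 372 and 514 CPM. In MHCII-low macrophages it was 520.0, 471 and 422 CPM in lean and 407, 363 and 345 CPM in obese libraries. In CD11c-negative macrophages it was 564, 488 and 489 CPM in lean and 446, 373 and 391 CPM in obese libraries. Obese libraries were below lean ones in both, with log2 fold changes of -0.34 (SE 0.14, adjusted p = 0.0688) and -0.35 (SE 0.14, adjusted p = 0.0613) that did not pass. With DESeq2's size factors they did, at -0.41 (adjusted p = 0.0293) and -0.39 (adjusted p = 0.0367), and that scaling set the median of all genes at -0.15 and -0.14. In CD11c-negative cells the fall of Tgfb1 also passed in voom with group weights and in a fit of the compared groups only. The medians of all genes there were -0.10 and -0.02. In neither population did the fall pass in a fit with a single library left out. In monocyte-derived cells the libraries overlapped, at 358, 478 and 310.2 CPM in lean and 406, 374 and 392 CPM in obese mice (log2 fold change 0.03, SE 0.14). The sign of that value turned with DESeq2's size factors (-0.01).

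The diet difference of Hbegf in CD11c-negative macrophages was the largest of the 9 genes in any of the 3 populations. The gene was 164, 177 and 145 CPM in lean and 87.5, 45.8 and 47.7 CPM in obese MHCII-low macrophages, where obese replicate 1 lay between the lean libraries and the other obese ones. The log2 fold change was -1.42 (SE 0.25, adjusted p = 0.000563), or 2.68-fold lower. In CD11c-negative macrophages Hbegf was 135, 154 and 182 CPM in lean and 25.0, 20.5 and 25.9 CPM in obese libraries. All obese libraries were far below the lean ones, with a log2 fold change of -2.72 (SE 0.27, adjusted p = 1.41e-06), or 6.60-fold lower. In monocyte-derived cells it was 6.18, 13.1 and 6.69 CPM in lean and 3.12, 4.62 and 5.65 CPM in obese libraries (log2 fold change -0.98, SE 0.29, adjusted p = 0.0272). The groups were close there, and the fall did not pass without lean replicate 2 (-0.48, adjusted p = 0.189), obese replicate 1 (-0.63, 0.176), obese replicate 2 (-0.84, 0.0934) or obese replicate 3 (-1.05, 0.057), nor in a fit of these 2 groups alone (adjusted p = 0.181).

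Hbegf is known as a gene that stress can induce quickly, so 10 immediate early and dissociation genes (Fos, Fosb, Jun, Junb, Egr1, Atf3, Ier2, Hspa1a, Hspa1b, Dusp1) were read beside it. This list was added after the levels of Hbegf were seen. Its sum was 9657 to 12163 CPM in lean and 8917 to 9859 CPM in obese MHCII-low macrophages. In CD11c-negative macrophages it was 8841 to 11185 CPM in lean and 6556 to 7548 CPM in obese libraries, and in CD11c-positive macrophages 5257 to 6518 CPM. In monocyte-derived cells the order was not that of Hbegf, with 4187 to 7336 CPM in lean and 6676 to 6933 CPM in obese libraries. The part of this signal in the Hbegf differences was not tested.

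The second question is whether the diet differences themselves differed between populations. Between CD11c-negative and MHCII-low macrophages 0 of 22935 genes passed in edgeR (0% called, 634 genes at an unadjusted p under 0.05), while DESeq2 called 8 genes. Pdgfb, which rose by 1.86 in MHCII-low and 0.53 in CD11c-negative cells, had a difference of -1.33 (SE 0.29, unadjusted p = 0.000144, adjusted p = 0.549), and DESeq2 gave -1.30 (adjusted p = 0.0398). Without obese MHCII-low replicate 1 edgeR gave -1.55 (adjusted p = 0.0253). Hbegf had a difference of -1.30 (SE 0.36, adjusted p = 1.00) and Pdgfc one of -1.02 (SE 0.46, adjusted p = 1.00). Between monocyte-derived and CD11c-negative cells 4 of the 9 passed, all with the higher value in monocyte-derived cells in the fit without a block, where 6.36% of all genes were called, 3.85% higher and 2.51% lower. Igf1 differed by 1.03 (SE 0.27, adjusted p = 0.0269) and Hgf by 0.90 (SE 0.20, adjusted p = 0.0123). Vegfb differed by 0.97 (SE 0.29, adjusted p = 0.0466), and Hbegf, which fell less in monocyte-derived cells, by 1.74 (SE 0.39, adjusted p = 0.0119). With a weight for each group in limma's voom none of these 4 passed, with adjusted p of 0.15 (Igf1), 0.137 (Hgf), 0.338 (Vegfb) and 0.106 (Hbegf). None passed either with the obese replicate 2 libraries of all populations left out, at 0.206, 0.144, 0.249 and 0.0967 in the same order. With the replicate number of the titles within a diet as a block 6 of the 9 passed, these 4 and Pdgfa (1.10, adjusted p = 0.0386) with the higher value in monocyte-derived cells and Vegfa (-0.95, adjusted p = 0.00841) with the lower. With the description number Vegfa passed too (-0.97, adjusted p = 0.0115) and Pdgfa did not (1.08, adjusted p = 0.0699). Both blocks also group lean libraries, whose numbers do not clearly pair samples. The call for Igf1 was also lost without lean monocyte-derived replicate 1 (0.90, adjusted p = 0.069) or replicate 3 (0.90, 0.0505) or obese monocyte-derived replicate 3 (1.06, 0.0565). That for Vegfb was lost without lean CD11c-negative replicate 1 (1.00, 0.0752) or replicate 2 (adjusted p = 0.0548), lean monocyte-derived replicate 1 (0.79, 0.12), obese CD11c-negative replicate 1 (1.00, 0.0502) or obese monocyte-derived replicate 2 (0.93, 0.0733).

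The third question is how populations of the same diet differed. These comparisons share libraries with each other and with the diet comparisons. In obese mice 2 of the 9 were lower in CD11c-negative than in MHCII-low macrophages and none higher, where 3.05% of all genes were called, 1.19% higher and 1.85% lower. Pdgfc stood at 20.7, 24.9 and 29.3 CPM against 80.8, 70.9 and 61.4 CPM, a log2 fold change of -1.51 (SE 0.33, adjusted p = 0.016), and Hbegf at 25.0, 20.5 and 25.9 CPM against 87.5, 45.8 and 47.7 CPM, a log2 fold change of -1.34 (SE 0.26, adjusted p = 0.00497). Libraries of both genes were apart between the populations. Gm16000, which overlaps Pdgfc, was lower in CD11c-negative cells as well, at 1.58 ± 0.196 against 3.88 ± 0.732 CPM. The call for Pdgfc was lost when any of the 6 libraries was left out: CD11c-negative replicate 1 (-1.38, adjusted p = 0.156), 2 (-1.48, 0.131) or 3 (-1.64, 0.0831), or MHCII-low replicate 1 (-1.41, 0.15), 2 (-1.50, 0.0773) or 3 (-1.58, 0.0556). That for Hbegf was lost without CD11c-negative replicate 2 (-1.22, 0.0661) or MHCII-low replicate 1 (-0.98, 0.0869). Vegfa was higher in all 3 CD11c-negative libraries (142 to 187 CPM) than in the MHCII-low ones (57.7 to 116 CPM), at 0.88 (SE 0.28, adjusted p = 0.12). In the fit with the replicate number within a diet as a block, in which obese samples of equal number are paired, Vegfa passed at 0.91 (adjusted p = 0.0012) and Pdgfb at 0.64 (adjusted p = 0.0302), and 1170 genes were called in place of 699.

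Between CD11c-positive and CD11c-negative macrophages of obese mice 1 of the 9 passed, where 3.49% of all genes were called, 1.38% higher and 2.11% lower. Pdgfa was lower in CD11c-positive cells, at 34.0, 31.0 and 27.0 CPM against 71.6, 56.4 and 53.6 CPM, by a log2 fold change of -0.98 (SE 0.21, adjusted p = 0.0155). The libraries were apart, but the call was lost without CD11c-negative replicate 1 (-0.81, adjusted p = 0.156) or 3 (-1.02, 0.0573) or CD11c-positive replicate 2 (-0.96, 0.125) or 3 (-0.87, 0.136). The overlapping gene 6330403L08Rik was lower in CD11c-positive cells as well, at 8.03 ± 1.92 against 14.1 ± 3.06 CPM. Hbegf was 13.1, 12.7 and 13.5 CPM in CD11c-positive cells, below every CD11c-negative library, at -0.86 (SE 0.26, adjusted p = 0.0731). Vegfa was above every CD11c-negative library, at 0.51 (SE 0.28, adjusted p = 0.343). In the fit with the title number as the replicate block both passed, Hbegf at -0.85 (adjusted p = 0.0493) and Vegfa at 0.50 (adjusted p = 0.0459), and 1847 genes were called in place of 801. With the description number as the block, which is the same for obese libraries and differs for lean ones, neither passed (Hbegf -0.85, adjusted p = 0.0787, and Vegfa 0.50, adjusted p = 0.0537). Hgf was 47.6, 56.0 and 55.8 CPM in CD11c-positive cells, the group with the highest mean, and overlapped CD11c-negative cells (0.23, SE 0.14, adjusted p = 0.389).

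**Figure D4:**
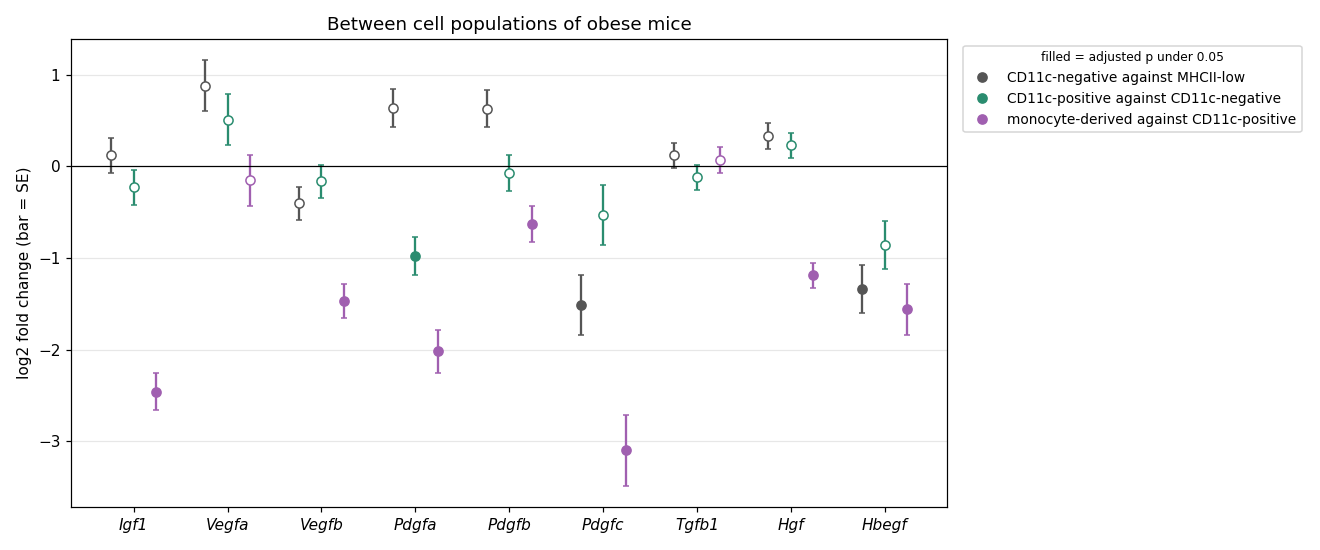
Log2 fold change of each gene between populations of obese mice: CD11c-negative against MHCII-low, CD11c-positive against CD11c-negative, and monocyte-derived against CD11c-positive, with bars of 1 SE and filled points where the adjusted p is under 0.05. Monocyte-derived cells are lower for 7 of the 9 genes, and Vegfa and Tgfb1 have no filled point.

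Obese monocyte-derived cells had lower levels of 7 of the 9 genes than obese CD11c-negative macrophages, where 23.8% of all genes were called, 11% higher and 12.8% lower. They had lower levels of the same 7 than CD11c-positive macrophages, where 38.7% were called, 19.3% higher and 19.4% lower. Igf1 was lower by 2.68 on the log2 scale against CD11c-negative cells (log2 fold change -2.68, SE 0.20, adjusted p = 1.91e-08). Pdgfc had log2 fold changes of -3.64 (SE 0.40) and -3.10 (SE 0.39) against CD11c-negative and CD11c-positive cells, and Pdgfa of -3.00 (SE 0.24) and -2.02 (SE 0.23). Their overlapping genes had lower means as well. Gm16000 stood at 0.142 CPM against 1.58 and 0.817 CPM, and 6330403L08Rik at 3.36 CPM against 14.1 and 8.03 CPM. Vegfb, Hgf and Hbegf were lower too, by log2 fold changes of -1.62, -0.96 and -2.42 against CD11c-negative cells. Pdgfb was lower by less, at -0.70 (SE 0.20, adjusted p = 0.0133) and -0.63 (SE 0.20, adjusted p = 0.0168). These were lost without CD11c-negative replicate 2 (-0.58, adjusted p = 0.0793) and without CD11c-positive replicate 2 (-0.57, adjusted p = 0.0601) respectively. Vegfa (0.36, adjusted p = 0.375) and Tgfb1 (-0.05, adjusted p = 0.844) did not pass against CD11c-negative cells, and the sign for Tgfb1 turned with library totals without TMM (0.03). The 5 macrophage markers were lower in monocyte-derived cells as well, and their part in these differences was not tested.

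In lean mice 2 of the 9 were higher in CD11c-negative than in MHCII-low macrophages, where 1.3% of all genes were called, 1.05% higher and 0.253% lower. Pdgfb was 40.4, 49.6 and 47.5 CPM against 13.7, 9.46 and 12.3 CPM, a log2 fold change of 1.95 (SE 0.21, adjusted p = 1.1e-05). Pdgfa was 93.9, 88.2 and 77.3 CPM against 50.3, 40.6 and 34.9 CPM, a log2 fold change of 1.04 (SE 0.21, adjusted p = 0.0138). The groups were apart for both chains. 6330403L08Rik, which overlaps Pdgfa, was higher in CD11c-negative cells as well, at 28.2 ± 2.73 against 16.0 ± 2.34 CPM. The call for Pdgfa was lost without CD11c-negative replicate 1 (0.99, adjusted p = 0.0777) or 2 (1.05, 0.0598) or MHCII-low replicate 2 (1.03, 0.0762) or 3 (0.94, 0.126), and with the description number as a replicate block (1.09, 0.0713). Hgf was higher in every CD11c-negative library, at 0.57 (SE 0.14, adjusted p = 0.0507), and passed in DESeq2 (0.53, adjusted p = 0.012). Igf1 and Hbegf overlapped between these populations, with log2 fold changes of 0.01 and -0.04.

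Lean monocyte-derived cells had a higher level of 1 gene and lower levels of 7 than lean CD11c-negative macrophages, where 43.7% of all genes were called, 23.6% higher and 20.1% lower, and the median of all genes was 0.14. Vegfa was the gene that was higher, with 183, 149 and 112 CPM against 84.0, 44.5 and 50.1 CPM (log2 fold change 1.31, SE 0.29, adjusted p = 0.00131). Pdgfc, Hbegf, Pdgfa and Igf1 were lower by the most, at -4.79 (SE 0.42), -4.16 (SE 0.29), -4.07 (SE 0.25) and -3.71 (SE 0.21). The overlapping genes Gm16000 (0.573 against 5.46 CPM) and 6330403L08Rik (3.27 against 28.2 CPM) had lower means as well. Tgfb1 was lower at -0.43 (SE 0.14, adjusted p = 0.0184), which was lost without CD11c-negative replicate 1 (-0.40, adjusted p = 0.0626) or monocyte-derived replicate 1 (-0.38, 0.0679) or 3 (-0.30, 0.0927). Pdgfb had a log2 fold change of 0.00 (SE 0.20).

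Of 17 receptor genes for these factors, 3 rose and 5 fell with diet in MHCII-low macrophages, 2 rose and 4 fell in CD11c-negative macrophages, and 4 rose and none fell in monocyte-derived cells. The medians were -0.35, -0.11 and 0.11. The shares of all genes called, to be read beside these and the next lists, were 30.7%, 32.4% and 17.2% in the same order. Tgfbr1, the signalling receptor of TGF-beta, rose in all 3 populations, from 66.7 ± 1.84 to 163 ± 29.9 CPM in MHCII-low, from 102 ± 13.8 to 284 ± 9.06 CPM in CD11c-negative and from 45.4 ± 3.88 to 106 ± 17.998 CPM in monocyte-derived cells (SD, n = 3). Its log2 fold changes were 1.29 (SE 0.14, adjusted p = 1.68e-06), 1.48 (SE 0.14, adjusted p = 4.01e-07) and 1.21 (SE 0.14, adjusted p = 9.72e-06). Igf2r, which carries lysosomal enzymes and clears IGF-2, rose by log2 fold changes of 2.90 (SE 0.33) in MHCII-low and 3.06 (SE 0.33) in CD11c-negative cells, and 2.82-fold (adjusted p = 0.00561) in monocyte-derived cells. It was highest in CD11c-positive cells, at 728, 879 and 830.4 CPM. Nrp1, a co-receptor of VEGF-A, rose in monocyte-derived cells from 64.8 ± 7.57 to 146 ± 19.5 CPM (1.17, SE 0.14, adjusted p = 1.75e-05).

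Receptors of IGF-1 and HB-EGF fell in macrophages, and both were singled out after their values were seen. Igf1r, the receptor of IGF-1, was 145, 163 and 146 CPM in lean and 116, 77.4 and 82.6 CPM in obese MHCII-low cells. It fell there (-0.72, SE 0.13, adjusted p = 0.000399) and in CD11c-negative cells (-0.93, SE 0.13, adjusted p = 2.84e-05). Egfr, a receptor of HB-EGF, was 94.5, 127 and 119.8 CPM in lean and 26.7, 43.6 and 31.1 CPM in obese CD11c-negative cells. It fell there (-1.75, SE 0.35, adjusted p = 0.00121) and in MHCII-low cells (-1.26, SE 0.34, adjusted p = 0.0115), as Hbegf did. Adipose stromal cells are known to express Egfr. The summed fibroblast markers were 908 to 1309 CPM in lean and 1307 to 2861 CPM in obese CD11c-negative libraries. In MHCII-low libraries they were 1029 to 1401 CPM in lean and 1265 to 2676 CPM in obese mice. The median log2 fold change of mesothelial markers was -1.06 and that of adipocyte markers -1.84 in CD11c-negative cells. In MHCII-low cells these medians were -1.87 and -2.07. The part of any of these signals in the falls of Egfr was not tested.

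**Figure D5:**
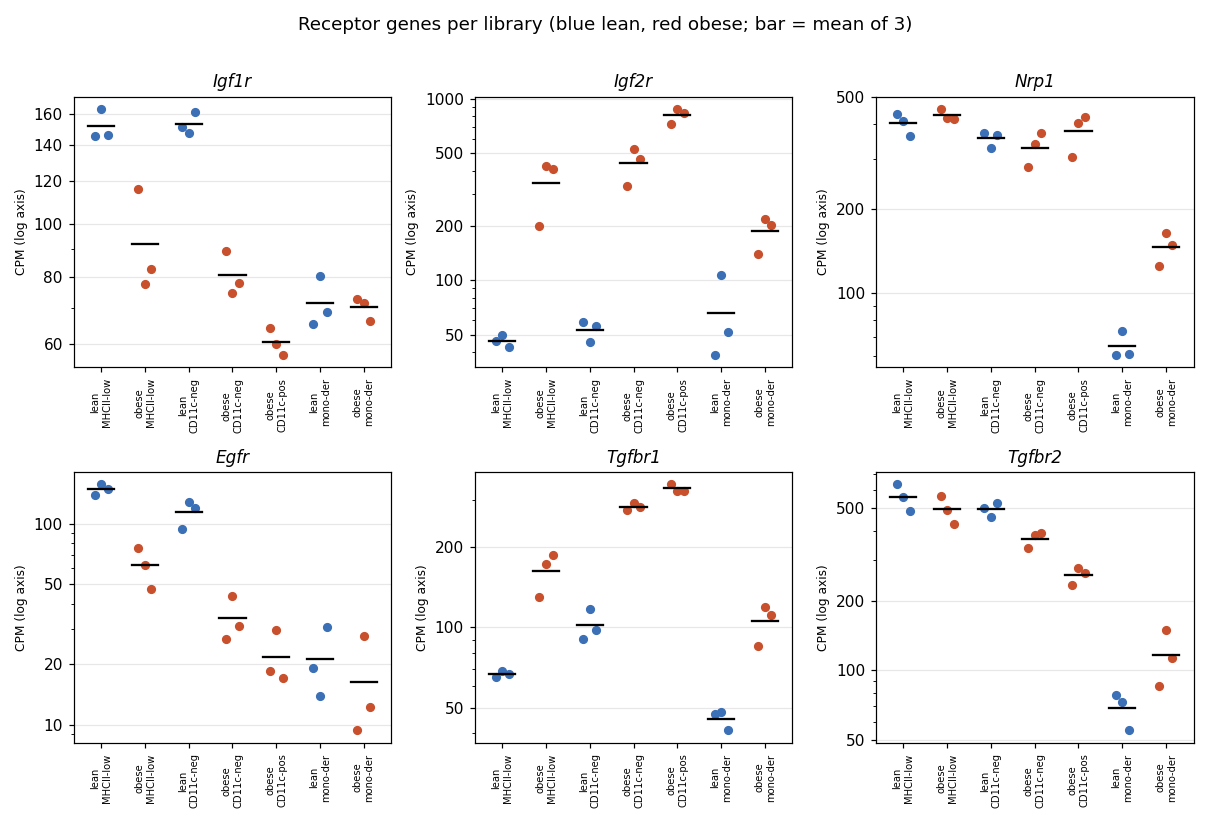
Level in CPM on a log axis of 6 receptor genes (Igf1r, Igf2r, Nrp1, Egfr, Tgfbr1, Tgfbr2) in every library, blue for lean and red for obese, with a bar at the mean of 3. Tgfbr1 and Igf2r are higher and Igf1r and Egfr lower in obese than in lean MHCII-low and CD11c-negative macrophages.

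Of 7 genes of IGF binding proteins, 4 fell in MHCII-low macrophages, 2 fell in CD11c-negative macrophages and none passed in monocyte-derived cells, and none rose. Igfbp4, which holds IGF-1 away from its receptor, fell in CD11c-negative cells from 323 ± 5.78 CPM to 193 ± 16.4 CPM (-0.74, SE 0.24, adjusted p = 0.0241). Markers of some other cell types fell with diet in the same libraries, where 13.8% (MHCII-low) and 15.6% (CD11c-negative) of all genes were called lower. In MHCII-low macrophages 4 of 6 mesothelial (median -1.87), 5 of 7 adipocyte (-2.07) and 6 of 7 T and NK cell markers (-1.93) fell, and in CD11c-negative macrophages 2 of 6 (-1.06), 4 of 7 (-1.84) and 4 of 7 (-1.41), and none rose. The adipocyte sum was 37.1 to 43.4 CPM in lean and 7.23 to 10.4 CPM in obese MHCII-low libraries, the mesothelial sum 26.9 to 46.5 against 9.32 to 20.1 CPM, and the T and NK cell sum 11.97 to 20.8 against 3.77 to 6.58 CPM. Not all lists fell. Of 10 fibroblast and preadipocyte markers 3 rose and none fell in each population (medians 0.43 in MHCII-low and 0.65 in CD11c-negative cells). Of 4 tested mast cell and eosinophil markers 1 rose in each, and no endothelial marker was called. The part of these signals in the falls of the IGF binding protein genes was not tested.

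Of 21 genes that process or activate the factors, 5 rose and 5 fell in MHCII-low, 5 rose and 3 fell in CD11c-negative and 3 rose and 2 fell in monocyte-derived cells. Itgav, an integrin chain that takes part in freeing latent TGF-beta, rose by 1.21 (SE 0.14), 1.28 (SE 0.14) and 0.97 (SE 0.14) in the same order. Adam17, a protease that sheds HB-EGF, rose by 0.58 (SE 0.12), 0.61 (SE 0.12) and 0.60 (SE 0.12).

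Of 10 genes of TGF-beta signalling and its targets, 1 rose and 2 fell in MHCII-low, 1 rose and 4 fell in CD11c-negative and 2 rose and 1 fell in monocyte-derived cells. Of 24 other growth factor genes, 2 rose and 4 fell in MHCII-low, 2 rose and 6 fell in CD11c-negative and 3 rose and 5 fell in monocyte-derived cells. Bmp2, a bone morphogenetic protein, was 81.1, 86.3 and 123 CPM in lean and 30.4, 19.8 and 23.3 CPM in obese CD11c-negative cells (-1.98, SE 0.27, adjusted p = 3.92e-05). Gdf15, a stress-induced cytokine, was 6.88, 16.3 and 8.32 CPM in lean and 43.7, 75.1 and 82.9 CPM in obese monocyte-derived cells (2.66, SE 0.30, adjusted p = 2.16e-05).

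For each of the 9 genes, those with the most similar pattern were read among 8646 protein-coding genes by Pearson's r of log2 CPM over the 21 libraries. These are descriptions over libraries that share groups, sorting and depth. Igf1 was closest to Apoe (0.994), Wwp1 (0.992) and Glul (0.991), and Vegfb to Stab1 (0.990), Epor (0.989) and Kdelc2 (0.986). Vegfa was closest to Csf2rb2 (0.972), Ralgapb (0.969) and Tbl1xr1 (0.962). Pdgfa was closest to Mcoln2 (0.971), Rab20 (0.968) and Trio (0.964), and Pdgfc to Nr3c1 (0.987), Chp2 (0.987) and Aldh7a1 (0.985). Hgf was closest to Acp2 (0.975), Mfsd12 (0.967) and Hvcn1 (0.965), and Hbegf to Abca9 (0.985), Tle4 (0.983) and Rhobtb1 (0.981). The patterns of Pdgfb and Tgfb1 had less close partners, Ccnd1 (0.927), Ptchd1 (0.904) and Acer3 (0.891) for Pdgfb and Parvb (0.917), Sun2 (0.902) and Ttpal (0.885) for Tgfb1.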

How the data were processed

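The values are counts of reads per gene that the authors deposited for 21 libraries. Per the submitters' processing notes these involved bcl2fastq, Trim Galore 0.4.5, STAR 2.6.0a, featureCounts of Subread 1.4.6-p5 and GRCm38, and per the labels RNA came from a PicoPure kit and libraries from a NuGen Ovation kit. Of 54532 gene IDs, 53315 matched GENCODE M21 with their version and 54495 without it.

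Genes were filtered with filterByExpr and scaled by TMM in edgeR 4.0.16 (R 4.3.3). A robust quasi-likelihood model of 7 group means (14 residual degrees of freedom, common dispersion 0.0502) gave 2-sided tests. An SE is the one the F statistic implies, and CPM are means ± SD with n = 3. Counting error covers the sampling of reads only, since PCR copies are not independent molecules. Alternatives used DESeq2 1.42.0, voom in limma 3.58.1, other scalings, no filter, compared groups only, left-out libraries and replicate blocks. Scripts were tested on simulated data.

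The 9 genes and the lists were chosen with earlier results of these data known. Up to 2 called genes of smallest p per list and comparison with at least 10 CPM in the higher group are named, and 3 genes of highest r for each of the 9. One gene that this rule names is not reported here.

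Titles number replicates 1 to 3, and descriptions number some lean libraries 1, 3 and 4. Deviations from group means over 8205 genes correlated above 0.1 in 17 of 18 obese pairs of equal number (0.0829 to 0.771), in every pair of the obese comparisons reported. Lean pairs did so in 4 of 9 cases of equal title number and in 5 of 7 of equal description number, so lean numbers were not taken to pair samples. The main fit pairs no samples. Every fit with a replicate block nevertheless used the numbers of lean libraries as well as those of obese ones.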

Additional observations from a re-analysis of the deposited data

Results flagged for a closer look

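For 4 genes the diet effect differed between monocyte-derived cells and CD11c-negative macrophages by a test of the difference itself in edgeR. The difference of log2 fold changes was 1.03 for Igf1, 0.97 for Vegfb, 0.90 for Hgf and 1.74 for Hbegf. Igf1, Vegfb and Hgf had the higher value in monocyte-derived cells, and Hbegf fell less there. With voom and a weight for each group 0 of the 4 passed. The summed macrophage markers were 469 to 1205 CPM in lean and 1124 to 1535 CPM in obese monocyte-derived libraries. In CD11c-negative libraries they were 3034 to 3228 CPM in lean and 3315 to 3946 CPM in obese mice. Their part in the differences was not tested.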

How the results depend on the processing

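No called value of the 9 genes changed sign in any alternative run, and the values that turned passed the threshold neither before nor after. Counts of all genes called moved by more than 1.5 times in many alternatives, and the cause was not tested. The library totals without TMM were added after the data were seen. Depth limits Pdgfc in monocyte-derived cells most, with 5 to 79 counts per library. A fit with a left-out library assumes that the remaining libraries of its group vary like the other groups.

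The DESeq2 test called 1225 genes for obese CD11c-negative against MHCII-low, 2162 for obese CD11c-positive against CD11c-negative, 596 for lean CD11c-negative against MHCII-low, 8 for the difference of diet effects between CD11c-negative and MHCII-low, and 2447 for that between monocyte-derived and CD11c-negative. Of the 9 it called 4 and 2 in both obese pairs and 1 in the difference between CD11c-negative and MHCII-low. Without the low-count filter 1215, 1435, 633 and 123 genes were called in the same order as far as that difference, and 5 and 3 of the 9 in both obese pairs and 3 and 7 in both differences. The voom fit with group weights called 1177 genes (2 of the 9) for diet in monocyte-derived cells, 1569 (5) for obese CD11c-negative against MHCII-low, 4191 (3) for obese CD11c-positive against CD11c-negative, 449 for lean CD11c-negative against MHCII-low, 6026 for lean monocyte-derived against CD11c-negative and 331 (0) for the difference between monocyte-derived and CD11c-negative, and 8 of the 9 for diet in CD11c-negative cells. Fits of the compared groups only called 122 genes (1 of the 9) for diet in monocyte-derived cells, 3172 (2) for obese CD11c-positive against CD11c-negative, 649 and 5386 for the lean pairs in the order above, 643 (1) for the difference between monocyte-derived and CD11c-negative, and 8 of the 9 for diet in CD11c-negative cells. With all obese replicate 2 libraries left out together, 2928, 4244 and 1753 genes were called for diet in MHCII-low, CD11c-negative and monocyte-derived cells, 271, 51, 3053 and 5282 in the 4 obese comparisons in the order of the report, and 291 for the difference between monocyte-derived and CD11c-negative. Of the 9, 3 were then called for diet in CD11c-negative cells, and 0 in the first and second obese comparisons and the last difference.

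For the replicate block of diet and title number, which pairs obese samples, the counts were 1170 (4 of the 9) for obese CD11c-negative against MHCII-low, 1847 (3) for obese CD11c-positive against CD11c-negative, 553 for lean CD11c-negative against MHCII-low, and 11 and 2429 for the differences of diet effects. It changed no call of the 9 in the obese comparisons beyond those given in the report. It also called Hgf (0.57, edgeR adjusted p = 0.0224) in lean CD11c-negative against MHCII-low. With the replicate block of diet and description number they were 1332 (4), 2364 (1) and 2833 (5) for the first, the second and the last of these, and 1 of the 9 (Pdgfb) for lean CD11c-negative against MHCII-low. Lean numbers do not clearly pair samples: pairs of equal title number correlated at -0.31 to 0.546 and of equal description number at 0.0527 to 0.546.

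Uncalled values turned as follows. Tgfb1 for diet in monocyte-derived cells was -0.01 with DESeq2's size factors and in the DESeq2 test and 0.00 with compared groups only. Pdgfc there was 0.03 in the DESeq2 test and in the replicate block on title number, 0.10 without the filter, 0.26 in voom, 0.07 with compared groups only and 0.00 with library totals. Igf1 in lean CD11c-negative against MHCII-low was -0.02 with both uses of DESeq2, 0.00 with compared groups only, -0.01 in the block of diet and title number and -0.04 with library totals. Pdgfb in lean monocyte-derived against CD11c-negative was 0.02 with both uses of DESeq2, 0.00 in the title block and 0.04 with library totals. Tgfb1 in the difference between CD11c-negative and MHCII-low was 0.03 with both uses of DESeq2 and with compared groups only, 0.01 without the filter, 0.05 without the obese replicate 2 libraries and 0.02 with library totals. Tgfb1 in obese monocyte-derived cells was -0.02 against CD11c-positive without the obese replicate 2 libraries and 0.03 against CD11c-negative with library totals.

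Leaving out each library in turn gave 3323 to 6281 genes called for diet in MHCII-low cells, 4493 to 6076 in CD11c-negative cells and from 1707 (without lean replicate 3) to 9903 (without lean replicate 2) in monocyte-derived cells. It gave 235 to 505, 81 to 393 and 3239 to 4624 in the first 3 obese comparisons, 135 to 189 for lean CD11c-negative against MHCII-low, and 0 to 2 and 718 to 3124 for the differences of diet effects. Of the 9, 3 to 4 were called for diet in CD11c-negative cells, 0 to 2 and 0 to 1 in the first and second obese comparisons, 1 to 2 for lean CD11c-negative against MHCII-low, and 0 to 1 and 2 to 7 for the differences. Values that turned ran from -0.04 to 0.18 (Vegfb, diet in CD11c-negative), -0.22 to 0.02 (Pdgfa, diet in MHCII-low), and, for diet in monocyte-derived cells, -0.27 to 0.05 (Pdgfb), -0.38 to 1.16 (Pdgfc) and -0.09 to 0.27 (Tgfb1). In lean CD11c-negative against MHCII-low they ran from -0.10 to 0.09 (Igf1) and -0.18 to 0.06 (Hbegf), and in lean monocyte-derived against CD11c-negative from -0.21 to 0.11 (Pdgfb). They ran from -0.08 to 0.06 (Tgfb1, difference between CD11c-negative and MHCII-low), -0.15 to 0.08 (Pdgfb, obese CD11c-positive against CD11c-negative), -0.11 to 0.04 (Tgfb1, obese monocyte-derived against CD11c-negative), and -0.26 to 0.00 (Vegfa) and -0.03 to 0.15 (Tgfb1) in obese monocyte-derived against CD11c-positive.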
